A study of Sus scrofa with 4 samples.

Results

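Immediate early response genes were followed in infarcted minipig heart tissue with and without myoblast transplantation. The 10 genes are FOS, JUN, EGR1, ATF3, NR4A1, NR4A3, IER3, DUSP1, DUSP6 and ZFP36, and every probe set that the array annotation assigns to one of them by symbol was kept. This gave 13 of the 24123 probe sets, which stand for 9 of the 10 genes: 3 for EGR1, 2 each for NR4A3 and DUSP6, and 1 each for FOS, JUN, ATF3, IER3, DUSP1 and ZFP36. NR4A1 has no probe set under its symbol and is not analysed here. A further 13826 probe sets of the array carry no symbol, so that other probe sets for these genes may be among them.

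Gene expression was profiled on 4 Affymetrix Porcine Genome Arrays, with 1 array for each combination of zone (border or infarct) and treatment (myoblast transplantation or control). According to the methods, all animals were female Chinese Bama minipigs aged 4 months with myocardial infarction (MI) after permanent ligation of the left circumflex coronary artery. Male human skeletal myoblasts in DMEM were injected into the border region of the infarct, the control treatment group received DMEM alone, and both groups received Cyclosporin A. The labels give the treatment of the control arrays as none, and the control treatment group is assumed to be what they hold. The methods also describe an MI group with neither DMEM nor Cyclosporin A, and if the labels mean that group, each ratio below also holds those differences. Neither the number of minipigs per array nor the time of sampling is stated. Each condition has a single array, so that nothing below has an error between animals or a test against it.

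Immediate early genes are transcribed within minutes of a stimulus such as stretch, hormones, cytokines or ischaemia, without new protein synthesis, through factors that already lie in the cell and are activated by MAP kinases, calcium and cyclic AMP. FOS, JUN, EGR1, ATF3 and NR4A3 encode transcription factors, whereas DUSP1, DUSP6, ZFP36 and IER3 act in the cytoplasm or nucleus to limit or shape the signal. Their mRNAs are mostly short-lived. In heart tissue they are known to be induced by ischaemia, reperfusion, pressure load and surgical handling.

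The immediate early genes did not move as 1 block with myoblasts. FOS, EGR1, ZFP36, DUSP6 and, by a smaller margin, DUSP1 had higher signals than control in both zones. NR4A3, IER3 and ATF3 had lower signals than control in both zones, by 2.49 to 8.89 times on their brightest probe sets. JUN lay on both sides of control.

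At least 2-fold in both zones, the size used in the methods, were 4 of the 13 probe sets in the lower direction, both of NR4A3 and those of IER3 and ATF3, and 1 in the higher direction, a probe set of EGR1. Over all 24123 probe sets of the array, 2.81% were at least 2-fold lower and 2.91% at least 2-fold higher in both zones. The share depends on signal, and 10 of the 13 member probe sets have a mean signal of at least 512 units. Of the 6362 probe sets in that range, 0.754% were 2-fold lower and 0.88% 2-fold higher in both zones, against 3 and 1 of the 10 members. In the mean of the log2 ratios of both zones, 4 member probe sets were at least 2-fold lower (7.82% of all probe sets) and 2, both of EGR1, at least 2-fold higher (7.7%). The median log2 ratio of the 13 probe sets in this mean was 0.42, beside 0.012 over all probe sets, and it hides a range from -2.74 to 1.32.

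**Figure D1:**
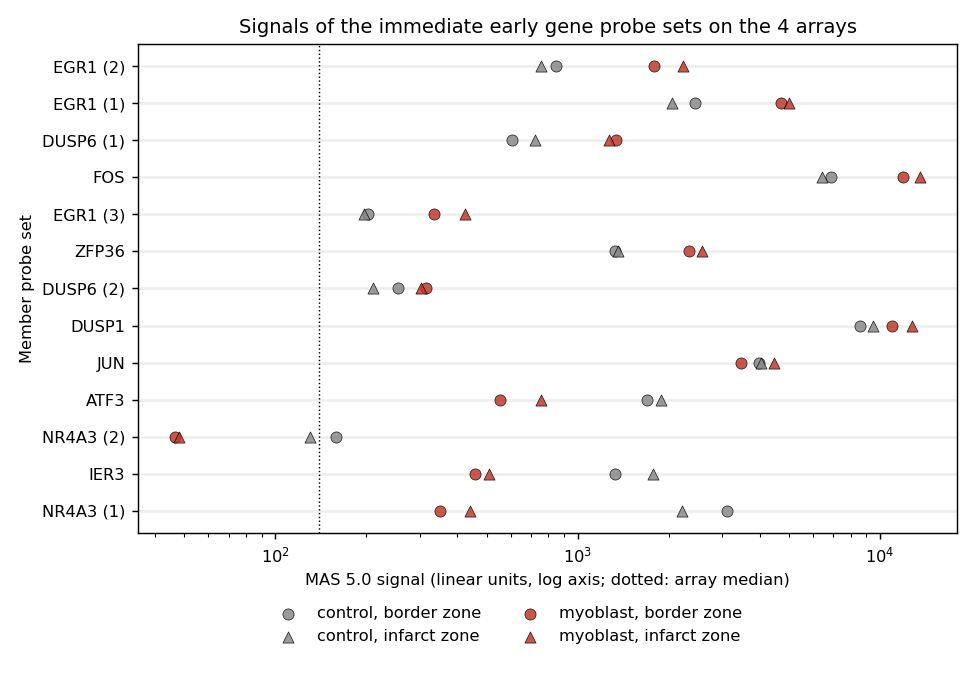
MAS 5.0 signal (x axis, linear units on a log axis) of each member probe set (y axis, ordered by the mean log2 ratio of myoblast over control, with probe sets of the same gene numbered from the brightest) on the 4 arrays, with 1 point per array and no error since each condition has 1 array. The myoblast points lie right of the control points from EGR1 to DUSP1 and left of them from ATF3 to NR4A3, and overlap them for JUN.

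FOS, which pairs with JUN proteins in the AP-1 transcription factor, had signals of 6870.4 and 6443 in the border and infarct zones of control hearts and of 11892 and 13583 with myoblasts. Both myoblast arrays lay above both control arrays. Myoblast over control was 1.73 in the border and 2.11 in the infarct zone.

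EGR1, a zinc finger factor that is a standard readout of ERK and serum response factor activity, was higher with myoblasts on each of its 3 probe sets. The brightest, Ssc.19629.2.S1_s_at, had signals of 2440.1 and 2046 in control and of 4690.0 and 5012 with myoblasts in the border and infarct zones, that is 1.92 and 2.45 times. The name of this probe set ends in _s_at, by which Affymetrix marks probes that can match transcripts of more than 1 gene. The second, Ssc.19629.1.A1_at, had 845 and 755 against 1794 and 2221, or 2.12 and 2.94 times, the only member probe set at least 2-fold higher in both zones. The dimmest, Ssc.16460.1.S1_at, had 203 and 197 against 335 and 424, or 1.65 and 2.16 times. On all 3 the myoblast arrays lay above the control arrays and the infarct zone had the larger ratio.

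ZFP36 (tristetraprolin), which binds AU-rich elements and speeds the decay of cytokine mRNAs such as that of TNF, had signals of 1325 and 1355 in control and of 2337 and 2573 with myoblasts, with ratios of 1.76 and 1.90. Its zones were close to each other in both treatments. The ratio was under 2-fold in each zone.

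The MAP kinase phosphatases DUSP6 and DUSP1 were also higher with myoblasts. DUSP6 removes phosphate from ERK in the cytoplasm and is itself induced by ERK. On its brighter probe set, Ssc.8865.1.A1_at, it had signals of 605 and 723 in control and of 1333 and 1271 with myoblasts, or 2.21 times in the border zone and 1.76 times in the infarct zone. On the dimmer one, Ssc.8865.2.S1_at, it had 255 and 210.0 against 315 and 303, or 1.23 and 1.44 times. The groups did not overlap on either probe set, but the sizes differed, and the brighter one had its larger ratio in the border zone while the dimmer one had it in the infarct zone. DUSP1, a nuclear phosphatase of p38, JNK and ERK, had signals of 8564 and 9487 against 10949 and 12733, with ratios of 1.28 and 1.34. The myoblast and control arrays did not overlap for 55.8% of the 6362 probe sets of at least 512 units, and the gap of DUSP1 is to be read beside that share.

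JUN, the partner of FOS in AP-1, had signals of 3984 and 4037 in control and of 3459 and 4443 with myoblasts. Its ratio was 0.868 in the border and 1.10 in the infarct zone. It was the only member whose control signals lay between those of the myoblast arrays, and the only one with ratios on opposite sides of 1.

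NR4A3 (NOR-1), an orphan nuclear receptor that needs no known ligand and whose activity follows its amount, had the lowest ratios of the members. Signals of the brighter probe set, Ssc.761.1.S1_at, were 3115 and 2208 in control and 350.2 and 440.3 with myoblasts. The control arrays differed from each other by less than either differed from the myoblast arrays. The ratio was 0.112 in the border and 0.199 in the infarct zone, and the log2 mean of both, -2.74, was the 10th lowest among 12037 probe sets above the array median. The dimmer probe set, Ssc.761.2.S1_a_at, had signals of 158 and 130.2 in control against 46.6 and 48.0, with ratios of 0.294 and 0.368. Array medians lay between 137 and 142 units, so that this probe set reached the median in the control border zone alone, and with signals under the median raised to it its mean log2 ratio was -0.067.

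IER3 (IEX-1), a target of NF-κB and p53 that modulates cell survival and ERK signalling, had signals of 1332 and 1772 in control and of 456 and 510.4 with myoblasts. The groups did not overlap. Its ratios were 0.342 and 0.288, and it was the only member of the lower group with its ratio further from 1 in the infarct zone.

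ATF3, a stress-induced factor of the ATF/CREB family that acts largely as a repressor and is a hallmark of the integrated stress response, had signals of 1693 and 1881 in control and of 551 and 755 with myoblasts. The higher myoblast signal was still less than the lower control signal. Its ratios were 0.326 and 0.401. On mean log2 ratio, IER3 (-1.67) was the 40th and ATF3 (-1.47) the 60th lowest of the 12037 probe sets above the array median, while the second EGR1 probe set (1.32) was the 105th highest.

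**Figure D2:**
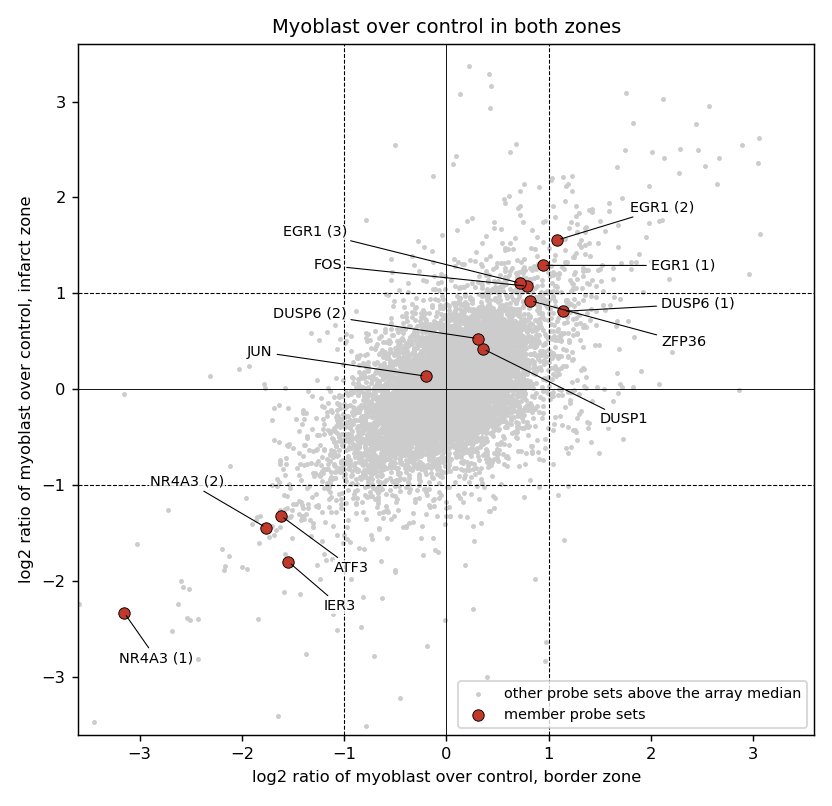
Log2 ratio of myoblast over control in the border zone (x axis) and the infarct zone (y axis) for the 13 member probe sets (red, numbered from the brightest within a gene) and other probe sets above the array median (grey, of which 17 fall outside the axes), with dashed lines at 2-fold. NR4A3, ATF3 and IER3 lie beyond 2-fold in the lower left, EGR1, FOS, ZFP36 and the brighter DUSP6 probe set lie around the 2-fold lines in the upper right, and JUN lies near 0.

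Myoblast and control arrays did not overlap for 12 of the 13 member probe sets, beside 44.9% of all probe sets. Over probe sets with a mean signal of at least 512 units the share was 55.8%. The same 12 had ratios on 1 side of 1 in both zones, 8 above and 4 below, beside 60.4% of all probe sets that kept their side. Arrays that do not overlap must keep their side, so that this count follows from the first. The zones share their treatment groups and may share animals, so that the second zone is no independent replicate of the first. Tissue was measured in bulk, where fewer cells of a type and less RNA per cell cannot be told apart.

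Between the zones the members differed little, as did most probe sets with a mean signal of at least 512 units. This is therefore not particular to the members. In control hearts the infarct over border ratio ran from 0.709 for NR4A3 to 1.33 for IER3, with 6 of 13 probe sets higher in the infarct zone (50.4% of all probe sets). With myoblasts it ran from 0.953 for DUSP6 to 1.37 for ATF3, with 11 of 13 higher in the infarct zone, where 52.8% of all probe sets were. No member probe set was 2-fold apart between zones in either treatment, beside 17.2% of all probe sets in control and 18% with myoblasts, and 0.22% and 2.22% of those with a mean signal of at least 512 units. For 12 of the 13 the smaller of its treatment ratios was further from 1 than either of its zone ratios, and JUN was the exception. The share of all probe sets with this property was not counted, so it is not read as particular to the members. Of the 8 probe sets above control in both zones, 7 had the larger ratio in the infarct zone. Of the 4 below control, 3 had the lower ratio in the border zone. These counts include all 3 probe sets of EGR1 and both of NR4A3. They follow from the infarct over border ratios of each treatment, and the matching share of all probe sets was not counted. NR4A3 on its brighter probe set had the largest gap between the zones of any member, 0.83 on the log2 scale.

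**Figure D3:**
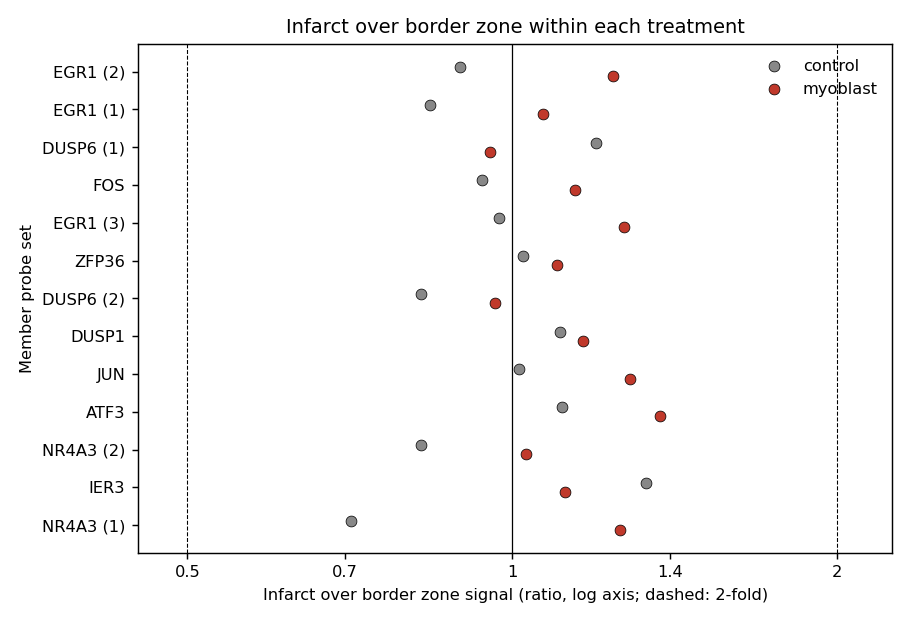
Ratio of the infarct over the border zone signal (x axis, log axis, dashed lines at 2-fold) of each member probe set (y axis) in control hearts and with myoblasts, with 1 array behind each signal. All points lie between 0.709 and 1.37, and 11 of 13 myoblast points lie above 1.

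Other genes of the early response were taken from 5 lists. In the order below, the lists name 19, 28, 28, 47 and 36 genes. Of these, 7, 17, 7, 33 and 16 were measured. Each gene was taken by its brightest probe set and counted at 2-fold in the mean over zones. Of all 6765 genes of the array with a single symbol, 5.11% were higher and 4.29% lower by this measure, with a median log2 ratio of 0.019. Partners of FOS, JUN and ATF3 in the AP-1 and ATF/CREB families had 1 of 7 genes higher, none lower and a median of 0.012. The gene that was higher was FOSL2, a FOS relative of slower induction, with signals of 179 and 163 in control and of 357 and 380.0 with myoblasts. CREM, a cyclic AMP responsive factor, had ratios of 0.732 and 1.05, and its dimmer probe sets scattered around 1. CREBZF, a basic leucine zipper protein, had 1.20 and 0.983, and its dimmer probe sets had ratios from 0.882 to 1.48.

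Among the EGR, NR4A, KLF and other early transcription factors, 2 of 17 genes were higher, 2 lower and 13 in between (median 0.085). ID3, an inhibitor of basic helix-loop-helix factors and a target of BMP signalling, had signals of 2339 and 2593 in control and of 7217 and 5756 with myoblasts. Its relative ID1 had ratios of 2.05 and 1.44. KLF9, a Krüppel-like factor, had 6819 and 4593 against 2598 and 2661, whereas a dim KLF9 probe set had ratios of 2.20 and 1.30. TSC22D3 (GILZ), a leucine zipper protein that restrains NF-κB and AP-1, had ratios of 0.845 and 0.582, and a dim probe set of it 0.444 and 2.21. The other two genes past 2-fold lay under the array median, ID2 with ratios of 3.63 and 1.59 and KLF2 with 0.531 and 0.120.

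Feedback inhibitors of the phosphatase, Sprouty and cytokine signalling families had 2 of 7 genes higher and none lower (median 0.049). RGS2, which switches off Gq-coupled receptors, had signals of 2091 and 1900.0 in control and of 4369 and 5000.4 with myoblasts, with ratios above 1 on its dimmer probe sets too. The other gene past 2-fold, the cytokine signalling inhibitor SOCS1, rests on a single low signal, with 137 and 8.34 in control against 111 and 137.3. DUSP7, a close relative of DUSP6, had ratios of 1.42 and 1.57. The clock gene PER1 had 0.703 and 0.759 (1.20 and 0.371 on a dim probe set), and NFKBIA, the NF-κB inhibitor IκBα, 0.722 and 1.04.

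The list of other early response genes had the most genes past 2-fold in both directions and was also the longest list. Of its 33 measured genes, 11 were higher, 5 lower and 17 in between, with a median of 0.096. The chemokine CCL2 had signals of 695 and 540.0 in control and of 3837 and 3041 with myoblasts, and CXCL2 of 999 and 556 against 3369 and 4747. Both are cytokine-induced genes that the list shares with inflammation. IER5, a stress-induced regulator of heat shock factor, had 3695 and 3906 against 1293 and 1332, with ratios of 0.350 and 0.341. A dimmer IER5 probe set had ratios of 0.503 and 0.565, and another, with signals of at most 7.40, had 1.56 and 1.20. RHOB, a small GTPase induced by stress, had 5772 and 5879 against 1960.0 and 2717, while dimmer RHOB probe sets had ratios from 0.602 to 2.79. The remaining 3 lower genes were tissue factor (F3), with ratios of 0.542 and 0.440, and at signals not above the array median the growth factor HBEGF (0.379 and 0.648) and TNF (0.190 and 0.345). Among the higher genes not above the array median were the cytokine IL6 (2.92 and 4.54), the prostaglandin synthase PTGS2 (1.68 and 4.08), the apoptosis regulator PMAIP1 (2.03 and 3.92) and the cytokine LIF (3.40 and 1.73). By Q-PCR the paper reports lower Il6 and Tnf in the border and infarct zones with myoblasts. The dim IL6 signals here went the other way, and those of TNF the same way.

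Kinases of the MAPK cascade, which lie upstream of the members, had none of 16 genes higher and 1 lower (median 0.041). The lower one was MAPK8 (JNK1), at dim signals of 55.6 and 53.8 in control against 23.0 and 21.3. MKNK1, a kinase of the translation factor eIF4E, had ratios of 1.48 and 1.36, RPS6KA1 (RSK1), an effector of ERK, 1.46 and 1.16, the calcium-dependent kinase CAMK2D 0.781 and 0.855, and MAPKAPK3, an effector of p38, 0.891 and 0.795. The arrays measure the mRNA of these kinases and not their phosphorylation. By immunoblotting of heart tissue, the paper reports less phosphorylated ERK, JNK and p38 with myoblasts than in its control treatment group. The mRNA signals of EGR1 and DUSP6, both tied to ERK above, were higher with myoblasts. How these mRNA signals relate to the phosphorylation was not tested.

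**Figure D4:**
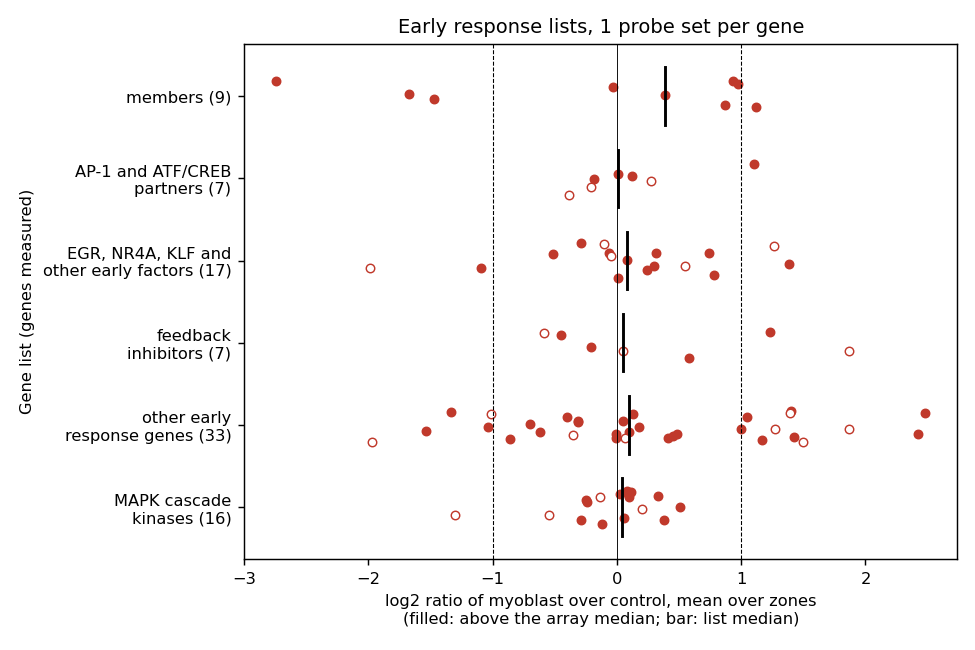
Log2 ratio of myoblast over control in the mean over zones (x axis, dashed lines at 2-fold) of each gene, by its brightest probe set, in the member list and 5 early response lists (y axis, genes measured in brackets), with filled points above the array median, open points not above it and bars at the list median. The members reach from -2.74 to 1.12. Of the 16 MAPK cascade kinases, 15 lie inside the 2-fold lines, and of all genes 5.11% lay beyond the higher and 4.29% beyond the lower line.

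The genes whose pair of zone ratios lay nearest to that of NR4A3, among 5958 single-symbol probe sets above the array median, were CCL14, SLA-3, TACC1, SLC3A1 and CRYAB, at distances of 0.45 to 0.68 on the log2 scale over the 2 zone ratios. CCL14, a chemokine, had signals of 696 and 504 in control and of 57.6 and 107 with myoblasts. The probe set of CRYAB, a small heat shock protein, had ratios of 0.174 and 0.237 beside 0.867 and 0.756 on its brighter probe set, so that the likeness holds for 1 of its 2 probe sets. With 2 ratios such a likeness says little about any of these genes.

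Many cell type markers also differed between the groups, and the quality controls did so for some pairs of probe sets alone. As heart tissue should, the samples held cardiomyocyte markers, 16 of 16 measured above the array median. Of these, 13 had ratios below 1 in both zones and 1, the natriuretic peptide NPPA, above 1. The summed signal of all 16 was 339501 and 387062 in control against 294080 and 323343 with myoblasts. In both treatments this sum was higher in the infarct than in the border zone, and the fibroblast sum below was lower. These sums therefore show no loss of cardiomyocytes on the arrays labelled infarct relative to those labelled border. How much infarcted tissue each sample held was not tested, and every infarct zone ratio here rests on the label. Macrophage and monocyte markers had 8 of 13 above 1 in both zones and none below, with sums of 11265 and 12520.3 against 15376 and 19346. By immunofluorescence, the paper reports fewer CD11b-positive cells with myoblasts than in its control treatment group. ITGAM, the gene of CD11b, was dim here and had ratios of 3.25 in the border and 0.668 in the infarct zone. Endothelial markers had 8 of 12 above 1 in both zones and 1 below, with sums of 11702 and 10544 against 14203 and 18747. Much of this gain lay in the cytokine-induced adhesion molecule VCAM1 (3618 and 2762 against 5747 and 8269). SELE had signals of 5.09 and 1.89 in control and of 200 and 176 with myoblasts. The identity markers were mixed. PECAM1 (ratios of 0.860 and 1.12), VWF (0.899 and 1.05) and ENG (1.21 and 0.822) lay on both sides of 1. CDH5 (1.37 and 2.04), CLDN5 (1.38 and 1.69) and ESAM (1.45 and 1.51) lay above 1 in both zones. So did TEK (1.06 and 1.69), KDR (1.79 and 1.18) and EGFL7 (1.03 and 1.06). TIE1, at dim signals, lay below 1 (0.192 and 0.414). Fibroblast markers had 3 of 8 above and 1 below (79687 and 78835 against 105683 and 64940), and smooth muscle markers 3 of 5 above and 1 below (16313 and 11349 against 18073 and 18462). None of the 5 neutrophil markers reached the array median (sums of 149 and 133 against 255 and 260.4, with 2 above 1 in both zones and 1 below), nor did any of the 8 skeletal muscle and myoblast markers (230 and 220 against 146 and 167, with none above and 3 below). MYOD1 and MYF5, which define myoblasts, had signals of at most 45.3 and 29.7 on any array, with probes designed on pig transcripts while the injected cells were human. No marker had a signal of 1, the lowest the files hold. RNA integrity is reflected in the 3'/5' signal ratio of EF1A, which was 4.17 and 4.13 in control and 3.01 and 2.49 with myoblasts. In the same order of arrays, the ratios of 2 actin pairs were 24.9 and 36.8 against 24.6 and 19.5, and 2.48 and 2.40 against 2.66 and 1.90, and 3 pairs of GAPDH probe sets gave 1.55 and 1.52 against 1.73 and 1.38, 2.27 and 2.36 against 2.34 and 2.04, and 1.57 and 2.02 against 1.54 and 0.987. The myoblast infarct array had the lowest value of each of these ratios. The part of cell composition and RNA integrity in the ratios of the immediate early genes was not tested.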

How the data were processed

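Total RNA was labelled with the GeneChip 3'IVT Express Kit, hybridized to Affymetrix Porcine Genome Arrays and scanned under Command Console Software. The authors deposited log2 signals from the MAS 5.0 algorithm, in which background is subtracted and arrays are brought to 1 scale. With 2% of probe sets trimmed at each end, the linear signals averaged 500.1 on all arrays. All columns were used unchanged.

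Genes were named from the platform annotation, which gives 10099 probe sets a single symbol, 198 several and 13826 none. Log2 ratios are myoblast minus control within a zone, and their mean is that of both zones. Calls were made at 2-fold, the threshold of the methods. No test was run, since each condition has 1 array. A probe set is above the array median when its higher group, by mean log2 signal, exceeds the median on both of its arrays. Distances to NR4A3 are Euclidean over the zone log2 ratios.

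The members, gene lists and alternatives were chosen with earlier results of these data known. Genes named beyond the members are, in each early response list, up to 2 with the highest and up to 2 with the lowest mean log2 ratio among those above the array median, and the 5 nearest to NR4A3. MAPK8, ID2, KLF2, SOCS1, F3, HBEGF, TNF, IL6, PTGS2, PMAIP1, LIF, NPPA, MYL3, PLN, ITGAM, MYOD1, MYF5 and the endothelial markers were named after their values were seen. Alternatives were quantile normalization, median centring, raising low signals to the 25th percentile or to the median of their array, leaving out probe sets not above the array median, 1 probe set per gene, averaging the probe sets of a gene, and 1.5-fold. Centring on probe sets of at least 512 units was added after the data were seen. The counting was tested on simulated data. Analyses used Python 3.11.15, pandas 2.3.3 and numpy 2.4.6.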

Additional observations from a re-analysis of the deposited data

Results flagged for a closer look

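JUN was the only member probe set with ratios on opposite sides of 1 in the 2 zones. Its log2 ratio of myoblast over control was -0.20 in border tissue and 0.14 in infarct tissue, a difference of 0.34 between zones. With 1 array per condition this difference was not tested, and both ratios are under 1.5-fold.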

How the results depend on the processing

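Each of the 13 member probe sets kept the sign of its mean log2 ratio under quantile normalization, median centring, a floor at either the 25th percentile or the median, and centring on probe sets of at least 512 units. The probe sets at least 2-fold in both zones were the same 1 higher and 4 lower under each of these, except that the dim NR4A3 probe set was lost when signals were raised to the array median. The count of higher probe sets depended on how EGR1 was represented, on the threshold and, in the mean over zones, on the normalization. Quantile normalization took the higher count in the mean from 2 to 3, since the mean log2 ratio of FOS went from 0.93 to 1.06. With the brightest probe set of each gene, and with the mean over the probe sets of a gene, the higher count was 0 in both zones and 1 in the mean over zones. At 1.5-fold it was 6 in both zones and 6 in the mean, and the lower count was 4 in both. With 1 array per condition no alternative can supply the spread between minipigs, and 2-fold calls among dim probe sets are less precise than those among bright ones.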

Other observations

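Genes outside the naming rule, chosen after their values were seen, lay on both sides of control within families. Of the IER genes, IER2 and IER5 are related in sequence. IER2 had signals of 551 and 489 in control and of 1147 and 1697 with myoblasts, with ratios of 2.08 and 3.47. By their brightest probe sets, IER3 and IER5 were lower. Of the NR4A receptors, NR4A2 had signals of 207 and 153 against 233 and 378, with ratios of 1.12 and 2.47, whereas NR4A3 was lower in both zones. SGK1, a kinase induced by serum and glucocorticoids, had signals of 1370 and 1405 against 3405 and 3919, with ratios of 2.49 and 2.79. ADAMTS1, a secreted protease of the early response, had signals of 2790.2 and 2600 against 4998 and 6178. The difference between members of a family was not tested.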
